A study of Mus musculus with 33 samples.

Results

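Ube3a and 6 genes near it on mouse chromosome 7 were examined in the CA1 region of the hippocampus, 7 genes out of the 38355 listed in the count files. The set holds Ube3a, Snhg14, Snrpn, Ndn, Magel2, Atp10a and Herc2, and it was chosen with results of these data in view: Ube3a because its level rose with JQ1 in APP mice, and Ndn because it stood on a reported list for young mice. Those contrasts are therefore described for these genes without a test, and so are the other contrasts of the aged mice for Ube3a, which reuse the mice it was chosen on. In the count files of the aged mice 5 of the 7 genes were found under their own identifiers. Snhg14 and Snrpn were not, and for Snrpn the row ENSMUSG00000000948 was used. In the GENCODE M21 annotation that identifier is Gm38393, a transcript unit on the minus strand that shares exon sequence with Snrpn, Snurf and Snhg14, so it is called the Snrpn-locus row here and its value cannot be split between those genes. No row or locus named Snhg14 was used, and no value is given for it.

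JQ1 blocks the bromodomains of the BET proteins, which read acetylated histones. APP mice are a transgenic line on a C57B/6 background, in which mutant human APP is driven by the neuronal Thy1 promoter. The aged animals were 8 to 10 months old. Of these, 6 APP mice received JQ1 at 50 mg/kg into the peritoneum for 10 days. Vehicle with 10% DMSO was given to 6 APP mice and to 4 WT mice with counts. Titles of the aged WT mice say WT, although the APP line is entered as their strain. The young animals were C57B/6JRj WT mice of 3 months, of which 8 received JQ1 at the same dose for 13 days and 8 received vehicle with 10% DMSO. All mice had been trained in a water maze. Aged and young mice differed in age, genotype, sex, length of treatment and the unit deposited, so none of these can be told apart between the 2 experiments and levels were not compared across them.

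The interval is one of the best known imprinted regions of the mammalian genome. Snrpn, Ndn, Magel2 and the long noncoding Snhg14 are transcribed from the paternal chromosome, and in neurons the antisense Snhg14 transcript silences the paternal Ube3a copy, so that UBE3A protein is made from the maternal copy. Loss of maternal UBE3A causes Angelman syndrome, and loss of the paternally expressed genes causes Prader-Willi syndrome. Atp10a lies beside Ube3a and its imprinting varies between tissues and strains, whereas Herc2, farther along the chromosome, is expressed from both copies. Reads of the 2 parental copies were not separated in these files.

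Ube3a lies at chr7:59228750-59311536 on the plus strand (mm10, GENCODE M21), with 20626 exonic bases, of which 27.3% overlap exons of genes on the opposite strand, Snhg14 among them. Whether the counting used strand is not given in the sources used here, so reads of these shared bases cannot be assigned to 1 gene. Ndn (chr7:62346569-62350262) and Magel2 (chr7:62377010-62381640) are single-exon genes on the plus strand. Atp10a (chr7:58656166-58829420) and Herc2 (chr7:56050196-56231800) are on the same strand. The Snrpn-locus row spans chr7:59974149-60005064 on the minus strand. Of its 5216 exonic bases, 14.4% overlap exons of other genes on that strand, Snrpn, Snurf and Snhg14 among them. Of the exonic bases of Snrpn, 27.3% overlap exons of other genes on that strand, this row included. The value of the row is therefore not the level of Snrpn alone.

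RefSeq start sites on build GRCm38.p6 were available for all 7 genes. The 250 bases before 4 of these starts are given because they differ in CpG content, and capitals mark every CpG. CpG is the site of DNA methylation, which was not measured here, and bases after the start are not counted. They are Ube3a (chr7:59228500-59228749, plus strand), the most distal Snrpn start, which RefSeq also gives to Snhg14 (chr7:60450178-60450427, minus strand), the most proximal Snrpn start (chr7:60005200-60005449, minus strand) and Ndn (chr7:62348027-62348276, plus strand).
Ube3a: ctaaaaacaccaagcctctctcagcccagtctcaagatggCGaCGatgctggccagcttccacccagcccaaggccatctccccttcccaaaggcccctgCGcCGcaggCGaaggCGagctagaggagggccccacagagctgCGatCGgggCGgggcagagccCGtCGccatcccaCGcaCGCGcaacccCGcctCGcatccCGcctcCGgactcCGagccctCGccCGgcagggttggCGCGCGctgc
Snrpn and Snhg14, distal start: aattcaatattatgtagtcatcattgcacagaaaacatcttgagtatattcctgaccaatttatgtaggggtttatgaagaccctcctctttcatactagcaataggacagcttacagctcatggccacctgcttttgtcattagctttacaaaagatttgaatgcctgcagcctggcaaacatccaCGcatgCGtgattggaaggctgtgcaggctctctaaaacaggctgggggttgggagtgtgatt
Snrpn, proximal start: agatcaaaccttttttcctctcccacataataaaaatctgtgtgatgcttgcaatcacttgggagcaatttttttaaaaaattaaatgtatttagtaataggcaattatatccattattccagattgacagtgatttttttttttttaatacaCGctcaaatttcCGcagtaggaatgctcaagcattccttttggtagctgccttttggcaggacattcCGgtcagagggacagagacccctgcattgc
Ndn: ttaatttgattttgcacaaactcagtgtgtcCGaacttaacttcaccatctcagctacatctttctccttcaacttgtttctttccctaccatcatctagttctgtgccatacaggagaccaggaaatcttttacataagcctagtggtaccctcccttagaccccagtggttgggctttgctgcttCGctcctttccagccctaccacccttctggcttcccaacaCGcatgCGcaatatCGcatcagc
The Ube3a window held 24 CpGs, against a median of 6 over the 32851 mouse promoter windows of this length. The Ndn window held 5 and the distal and proximal Snrpn windows 2 and 3. Of the windows not printed, those of Herc2 held 20 and 35, Atp10a 14, Magel2 7 and the other Snrpn starts 3 and 4. Such counts say nothing of which windows are methylated. GCATGCG, searched on both strands, was present in the distal Snrpn and Ndn windows, where the 2 strands' matches overlap in a single run, and in 3.02% of all windows. The windows of the other Snrpn starts, not printed here, held it as well. It was not in the Ube3a or proximal Snrpn windows, nor in those of Herc2, Atp10a and Magel2. A match is a description of the letters only.

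Libraries of the aged mice held 14605459 to 25339482 reads on genes, and reads outside exons made up 16.9 to 26.9% of reads in JQ1-treated APP mice, 15.4 to 24.5% in vehicle-treated APP mice and 16.3 to 18.9% in WT mice. Of 6 choroid plexus markers, the summed level was 3180 CPM (reads scaled to library size) in WT replicate 4 and 37.4 to 47.6 CPM in the other WT mice. The 6 astrocyte markers summed to 1235 to 1319 CPM in WT mice and to 1482 to 6357 CPM over the 12 APP mice. Their part in the results below was not tested. The depth behind the FPKM values of the young mice is unknown.

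The question of the first comparison was how JQ1 changes expression in APP mice. Ube3a, the HECT-domain E3 ubiquitin ligase that gives the region its medical interest, was higher in every JQ1-treated APP mouse than in any vehicle-treated APP mouse. With JQ1 its level in the 6 mice, in the order of their replicate numbers, was 44.1, 57.7, 62.7, 63.1, 49.0 and 50.5 CPM. With vehicle it was 28.8, 33.6, 18.3, 21.4, 23.8 and 26.5 CPM. The lowest JQ1 value thus stood above the highest vehicle value, and these values rest on 398 to 1140 reads per library. The means were 54.5 ± 7.83 CPM (SD, n = 6) and 25.4 ± 5.43 CPM (SD, n = 6), a log2 fold change of 1.10 with a standard error of 0.13. Since Ube3a was chosen on this contrast, no p is given. Of all 16962 genes tested, 1.08% passed an adjusted p of 0.05 (105 higher and 79 lower with JQ1), and in 0.878% every JQ1 value lay above every vehicle value. In bulk tissue, more RNA per cell and more cells of an expressing type cannot be told apart.

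**Figure D1:**
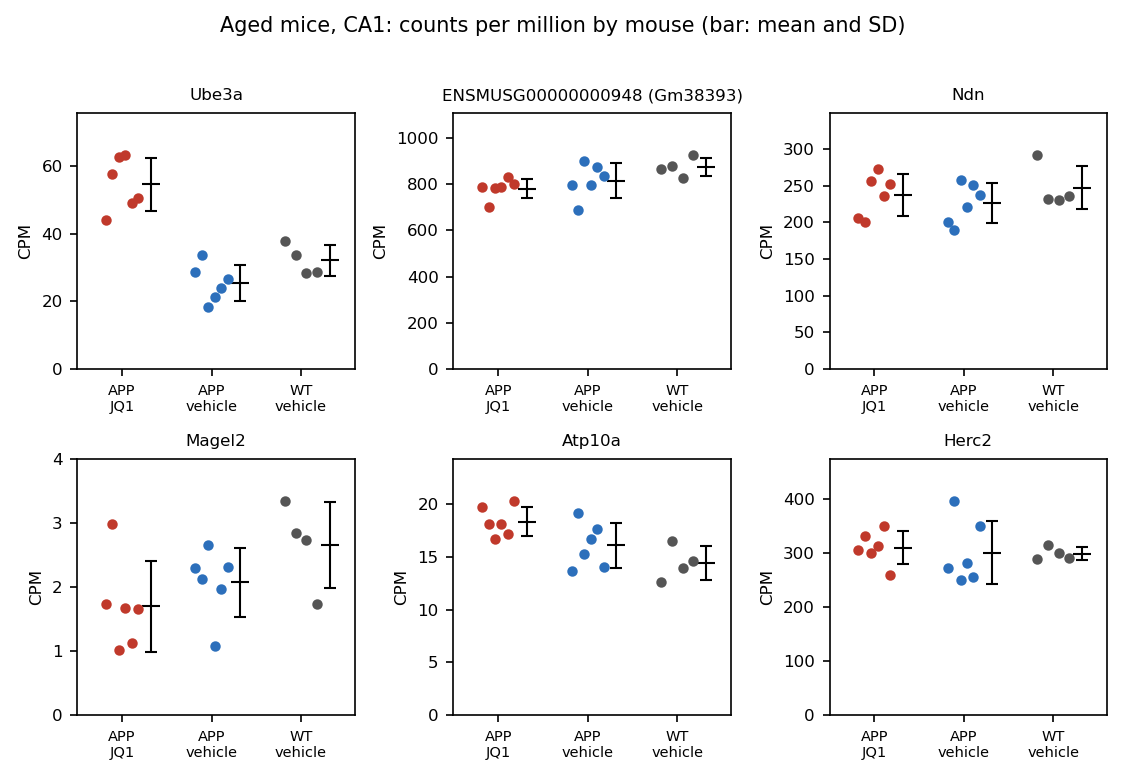
CPM of 6 rows in the CA1 of aged mice, 1 point a mouse, for JQ1-treated APP, vehicle-treated APP and vehicle-treated WT mice, with the mean and SD beside the points. The Ube3a panel shows JQ1 values of 44.1 to 63.1 CPM above vehicle values of 18.3 to 33.6 CPM, and in the other panels the APP groups overlap.

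The size of this difference moved with a correction for base composition. Its longest transcript has a GC content of 36.9%, lower than all but 1.10% of the genes tested. The 105 genes higher with JQ1 had a median GC content of 41.3% and the 79 lower genes 60.1%, against 49.8% over all genes tested. With a GC correction the log2 fold change of Ube3a was 0.77, and with GC content and length corrected together it was 0.72.

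The paternally expressed genes showed no difference past the threshold. The Snrpn-locus row, which overlaps part of the gene of a spliceosomal Sm protein, was at 786, 702, 782, 785, 828 and 799 CPM with JQ1. With vehicle it was at 795, 688, 901, 794, 875 and 833 CPM. The JQ1 range lay within the vehicle range, and the log2 fold change, -0.06, was small beside that spread (edgeR adjusted p = 0.701). After the GC correction the value was -0.46, in the same direction and again not past the threshold (edgeR adjusted p = 0.196).

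Ndn encodes necdin, a MAGE family protein of postmitotic neurons. It was at 206, 200, 257, 273, 236 and 252 CPM with JQ1 and at 201, 189, 258, 221, 251 and 237 CPM with vehicle. The groups covered the same range, and the log2 fold change was 0.07 (edgeR adjusted p = 0.761), turning to -0.08 with the GC correction. Magel2, a second MAGE protein, which binds a ubiquitin ligase on endosomes, was the weakest member, with 16 to 68 reads per library. Its level was 1.01 to 2.99 CPM with JQ1 (median 1.66) and 1.08 to 2.66 CPM with vehicle (median 2.21), a log2 fold change of -0.29 with a 95% interval of -0.87 to 0.29 (edgeR adjusted p = 0.626). At this depth only a large change in Magel2 would have been seen.

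Atp10a, a phospholipid flippase and the nearest neighbour of Ube3a upstream, was at 19.8, 18.2, 16.7, 18.1, 17.2 and 20.3 CPM with JQ1. With vehicle it was at 13.7, 19.2, 15.3, 16.7, 17.7 and 14.1 CPM. The JQ1 values lay toward the top of the vehicle range, but the groups overlapped and the log2 fold change of 0.19 did not pass the test (edgeR adjusted p = 0.351, exact permutation p = 0.0584, two-sided). Herc2, a very large ligase of the same HECT class that binds UBE3A, was at 258 to 350 CPM with JQ1 and 250 to 395 CPM with vehicle, 0.04 higher on the log2 scale (edgeR adjusted p = 0.873). Thus none of the 5 members other than Ube3a passed the threshold in edgeR or in DESeq2, and 0 of the 5 had an unadjusted p under 0.05, which 17.6% of all genes had. Without a GC correction, the 95% intervals of Ndn, Herc2, Atp10a and the Snrpn-locus row lay between -0.21 and 0.41 on the log2 scale. The GC-corrected value of the Snrpn-locus row lay outside that range.

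The rest of the interval was read in the same way. Between Tubgcp5 and Peg12, 23 of 259 annotated genes had enough reads to be tested, 17 of them outside the set. None of the 17 passed the threshold in edgeR or DESeq2, and 2 had an unadjusted p under 0.05, both higher with JQ1. Their median log2 fold change was 0.18, against 0.00 over all genes tested, and 0.04 once GC content and length were corrected. Gabrg3, a GABA-A receptor subunit, was at 25.7 ± 2.19 CPM (SD, n = 6) with JQ1 and 21.4 ± 4.28 CPM (SD, n = 6) with vehicle (log2 fold change 0.26, edgeR adjusted p = 0.242). Mkrn3, a paternally expressed zinc finger gene beyond Magel2, was near 1 CPM (log2 fold change 0.75, 95% interval -0.02 to 1.53, edgeR adjusted p = 0.299). Snord107, a small nucleolar RNA within the Snrpn unit, had at most 14 reads in any library (log2 fold change 1.13, edgeR adjusted p = 0.195).

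**Figure D2:**
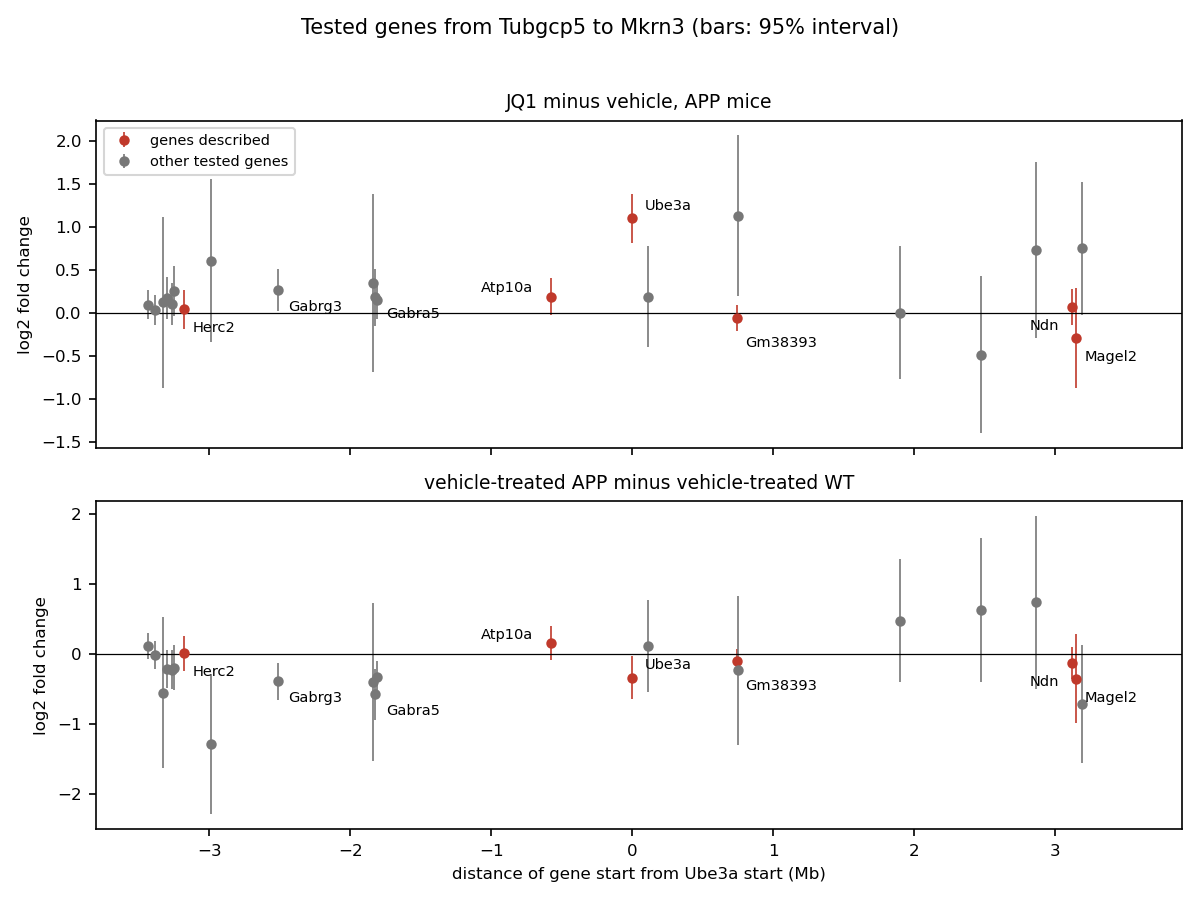
Log2 fold changes of the 23 tested genes against the distance of their start from the Ube3a start in megabases, with 95% intervals, for JQ1 minus vehicle in APP mice (top) and for vehicle-treated APP minus WT mice (bottom). Ube3a is at 1.10 in the top panel and -0.34 in the bottom panel, and the wide bars belong to genes with few reads.

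Ube3a belongs to the HECT ligases, which carry ubiquitin on a catalytic cysteine before passing it to a substrate. The other 25 members listed, Herc2 included, were all tested, and none passed the threshold in edgeR. DESeq2 called 1, Wwp1, where it called 749 of all 16962 genes. In edgeR 6 of the 25 had an unadjusted p under 0.05, all higher with JQ1, where 17.6% of all genes had one in either direction. Wwp1 was at 43.0 ± 5.36 CPM (SD, n = 6) with JQ1 and 33.9 ± 2.97 CPM (SD, n = 6) with vehicle (log2 fold change 0.35, edgeR adjusted p = 0.0687). Herc4 differed by 0.17 on the log2 scale (edgeR adjusted p = 0.201). These 25 ran from -0.24 to 0.40. Of the 25, 18 lay above 0, where 49.8% of all genes did, and their median was 0.14 against 0.00 over all genes, and 0.01 with GC content and length corrected.

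**Figure D3:**
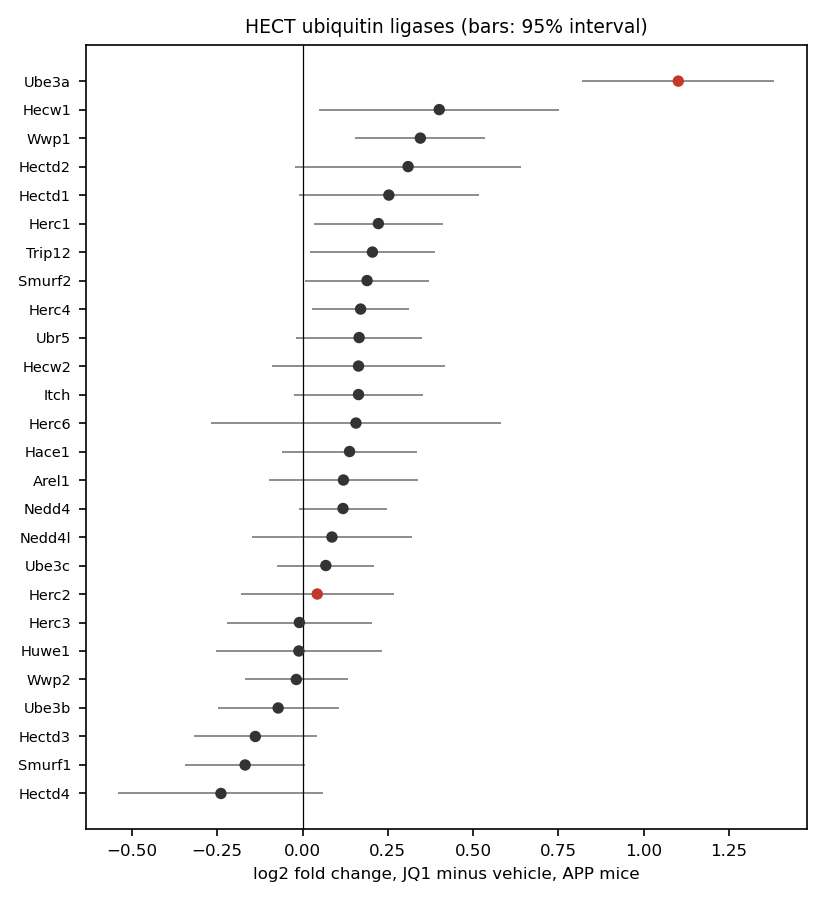
Log2 fold changes of 26 HECT ligases, JQ1 minus vehicle in APP mice, with 95% intervals, ordered by value, with Ube3a and Herc2 in red. Ube3a is at 1.10 and the other 25 lie between -0.24 and 0.40.

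A list drawn up as UBE3A partners and reported substrates was next, and the relation of each member to UBE3A was not checked here. Of 13 tested, 0 passed the threshold in edgeR or DESeq2 and 2 had an unadjusted p under 0.05. They were Ring1, a Polycomb ubiquitin ligase (-0.32 on the log2 scale, edgeR adjusted p = 0.147), and Cdkn1b, a cyclin-dependent kinase inhibitor (0.21, edgeR adjusted p = 0.222). The list's median was -0.15, and -0.01 after the GC and length correction. These are RNA levels, on which a ligase need not act.

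The MAGE family and partners of Magel2 gave 0 of 10 past the threshold in both tools, with 0 at an unadjusted p under 0.05; Nsmce3, a MAGE subunit of the SMC5/6 complex, differed by 0.18 (log2, edgeR adjusted p = 0.311) and Maged2 by 0.21 (log2, edgeR adjusted p = 0.322). Among 12 genes of spliceosomal ribonucleoproteins related to Snrpn, 1 passed the threshold in edgeR, where 1.08% of all genes did. An unadjusted p under 0.05 was found for 2, both lower with JQ1, where 17.6% of all genes had one in either direction. DESeq2 called 2, Snrpb and Snrnp70, where it called 749 of all 16962 genes. Snrnp70, the U1-specific 70K protein, was the edgeR call. It had a mean of 232 CPM with JQ1 and 304 CPM with vehicle (n = 6 each, log2 fold change -0.39, 95% interval -0.57 to -0.21, edgeR adjusted p = 0.0375). None of the 12 was called after the GC and length correction. Of 36 tested imprinted genes elsewhere in the genome, 0 passed in edgeR and 5 had an unadjusted p under 0.05. Sgce was the gene DESeq2 called (edgeR log2 fold change 0.26, adjusted p = 0.0999), and Zdbf2 was at 0.47 (edgeR adjusted p = 0.154). The list's median was 0.08.

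The second comparison asked how vehicle-treated APP mice differ from WT mice. None of the 5 members other than Ube3a passed the threshold in edgeR or DESeq2, where 2.57% of all genes did in edgeR, and 0 of the 5 had an unadjusted p under 0.05, which 14.4% of all genes had. Ube3a was at 37.8, 33.6, 28.4 and 28.6 CPM in the 4 WT mice, so that 4 of the 6 vehicle-treated APP mice lay below the lowest WT mouse and 1 of the others reached only 28.8 CPM. The mean was 32.1 ± 4.49 CPM (SD, n = 4) in WT mice. The log2 fold change, APP minus WT, was -0.34 with a standard error of 0.15, and -0.17 with GC content and length corrected. These vehicle-treated APP mice are also the controls of the first comparison, on which Ube3a was chosen, so no p is given.

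The Snrpn-locus row was at 864, 878, 827 and 924 CPM in WT mice (log2 fold change -0.10, edgeR adjusted p = 0.602). Ndn was at 291, 232, 230 and 236 CPM, with replicate 1 above the other WT mice (log2 fold change -0.13, edgeR adjusted p = 0.631). Magel2 was at 3.33, 2.83, 2.74 and 1.73 CPM (log2 fold change -0.35, edgeR adjusted p = 0.633). For each of these 3 the values of APP and WT mice overlapped, and the log2 fold change of the Snrpn-locus row turned to 0.14 with the GC correction. Atp10a was at 12.6, 16.6, 14.0 and 14.7 CPM (log2 fold change 0.16, edgeR adjusted p = 0.575) and Herc2 at 289, 314, 299 and 291 CPM (log2 fold change 0.01, edgeR adjusted p = 0.979).

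Outside the set, the genes of the interval nearest to the threshold included GABA-A receptor subunits, which form chloride channels of inhibitory synapses. Gabra5, the subunit of extrasynaptic receptors abundant in CA1, was at 153 ± 29.5 CPM (SD, n = 6) in vehicle-treated APP mice and 228 ± 32.7 CPM (SD, n = 4) in WT mice, without overlap (log2 fold change -0.58, edgeR adjusted p = 0.106). Gabrg3 was at -0.39 (edgeR adjusted p = 0.140), and its groups overlapped. Over all genes, 2.05% lay below WT without overlap. DESeq2 called Gabra5, edgeR called 0 of the 17 genes outside the set, and 4 had an unadjusted p under 0.05, all lower in APP mice. The 6 markers of inhibitory neurons had negative log2 fold changes, where 51.6% of all genes lay above 0. Their median was -0.20 against 0.01 over all genes, with 0 past the threshold in edgeR or DESeq2 and 1 at an unadjusted p under 0.05. Of 6 markers of CA1 pyramidal neurons, 3 lay above 0, and their median was -0.08. In edgeR 0 of these passed and 1 had an unadjusted p under 0.05, and DESeq2 called 1, Neurod6. A part of either cell type in the receptor subunit values was not tested.

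Of the other lists in this comparison, 0 of 25 HECT ligases passed in edgeR and 4 had an unadjusted p under 0.05. Herc6, an interferon-responsive member, was at 10.4 ± 1.74 CPM (SD, n = 6) in APP mice and 5.61 ± 0.71 CPM (SD, n = 4) in WT mice (log2 fold change 0.89, edgeR adjusted p = 0.0508), and DESeq2 called it. Ube3c was at -0.19 (edgeR adjusted p = 0.234). Nsmce3 was at -0.36 (edgeR adjusted p = 0.0604), called by DESeq2, with Usp7 at -0.12 (edgeR adjusted p = 0.480). H19 had 0.08 CPM in WT mice on average and was called by DESeq2 among the 36 imprinted genes (edgeR adjusted p = 0.0774). Of the UBE3A partners and the spliceosomal genes, 0 passed in either tool and 0 had an unadjusted p under 0.05. Astrocyte and microglia markers did change: Gfap, the astrocyte filament protein, rose by 3.18 on the log2 scale (edgeR adjusted p = 0.00993) and Trem2, a microglial receptor, by 2.78 (edgeR adjusted p = 0.00828), with 2 of 6 and 3 of 6 markers called.

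The third comparison set JQ1-treated APP mice beside vehicle-treated WT mice. It shares its JQ1 mice with the first comparison and its WT mice with the second, and Ube3a is described in it without a test because it was chosen on the same JQ1-treated mice. Its level was 44.1 CPM or more in the 6 JQ1-treated mice and 37.8 CPM or less in the 4 WT mice. The log2 fold change was 0.76 with a standard error of 0.15, and 0.55 with GC content and length corrected. With 1 library left out it lay between 0.70 and 0.85, the lowest without WT replicate 4, the library with choroid plexus transcripts. Of the 5 other members 0 passed the threshold in edgeR or DESeq2, where 2.06% of all genes did in edgeR, and 2 had an unadjusted p under 0.05, against 14.1% of all genes.

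Atp10a was at 16.7 to 20.3 CPM with JQ1 and 12.6 to 16.6 CPM in WT mice. The groups came close without overlapping, with JQ1 above WT as in 2.55% of all genes, and the log2 fold change was 0.35 (edgeR adjusted p = 0.150, exact permutation p = 0.00952, two-sided, the smallest this design allows). Magel2 was lower, at -0.64 (edgeR unadjusted p = 0.0485, edgeR adjusted p = 0.351, exact permutation p = 0.105, two-sided). The Snrpn-locus row was at -0.16 (edgeR unadjusted p = 0.0571, edgeR adjusted p = 0.374, exact permutation p = 0.0190, two-sided). For both the groups overlapped. Ndn and Herc2 were at -0.06 and 0.05 (edgeR adjusted p = 0.872 and 0.898). Of the 17 other genes of the interval 0 passed in edgeR or DESeq2, with 3 at an unadjusted p under 0.05. Of the 25 HECT ligases 13 lay above 0, and Herc6 was the 1 past the threshold (log2 fold change 1.04, edgeR adjusted p = 0.0266). Of all genes 2.06% passed. None of the 25 was called once GC content and length were corrected.
Zim1, an imprinted zinc finger gene, was at 1.25 (edgeR adjusted p = 0.0563) and Sgce at 0.25 (edgeR adjusted p = 0.166), with 0 of 36 imprinted genes called by edgeR, 1 by DESeq2 and 7 at an unadjusted p under 0.05. Among UBE3A partners, MAGE genes and spliceosomal genes 0 passed in either tool, with 0, 0 and 1 at an unadjusted p under 0.05.

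**Figure D4:**
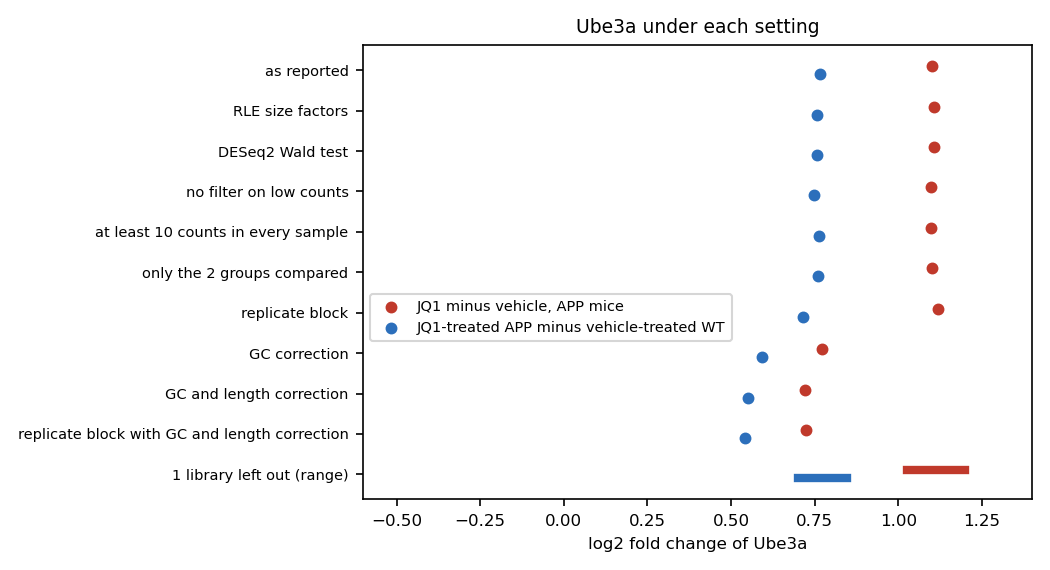
Log2 fold change of Ube3a under each way of fitting the counts, for JQ1 minus vehicle in APP mice (red) and JQ1-treated APP minus vehicle-treated WT mice (blue); the bars at the bottom span the fits that leave out 1 library. The red points lie at 1.10 to 1.12 except with a GC correction, where they lie at 0.72 to 0.77.

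In young WT mice, where JQ1 was compared with vehicle by FPKM (fragments per kilobase of transcript, scaled to library size), 1 of 18420 loci passed the threshold (0.00543%) and it was not a member. Levels per length can be set beside each other here. Ndn was the highest single-gene member, followed by Herc2 and Ube3a, whose ranges overlapped in part (22.3 to 28.5 FPKM against 16.8 to 23.2 FPKM), then Atp10a at 2.26 to 3.77 FPKM and Magel2 at 0.22 to 0.53 FPKM. The Snrpn locus read 2028 to 2507 FPKM, but it merges Snrpn and Snurf with the small nucleolar RNAs Snord107 and Snord64, and its level cannot be assigned to Snrpn.

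Ube3a was at 20.1, 21.6, 20.1, 19.6, 21.3, 21.4, 20.6 and 16.8 FPKM with JQ1. With vehicle it ran from 17.0 to 23.2 FPKM with a median of 18.8 FPKM. The JQ1 values fell within the vehicle range but for the lowest, and the means were 20.2 ± 1.53 FPKM (SD, n = 8) and 19.5 ± 2.29 FPKM (SD, n = 8). The log2 fold change was 0.06 with a 95% interval of -0.09 to 0.20 (limma adjusted p = 0.981). The difference from the aged mice was not tested.

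A second locus over the same interval, named for Ube3a and the small nucleolar RNA gene Gm24966, was at 12.4 to 23.0 FPKM with JQ1 and at 13.3 to 20.2 FPKM in 7 vehicle-treated mice. Vehicle replicate 6 read 58.7 FPKM. With that mouse the log2 fold change was -0.15, and without it 0.08, neither past the threshold (limma adjusted p = 0.983 with all mice). How the authors' program divided reads between the 2 loci is not given in the sources used here, and the first Ube3a locus was at 18.2 FPKM in the same mouse. The strand of the loci is not given either. The number of this locus falls among those of minus-strand genes such as Snrpn, and that of the first Ube3a locus among plus-strand genes such as Ndn. The locus is therefore not read as a second measure of Ube3a.

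Ndn was chosen on the young contrast and is described without a test. With JQ1 it was at 143, 58.1, 63.8, 67.5, 125, 124, 135 and 154 FPKM. With vehicle it was at 73.3, 70.3, 68.2, 68.8, 124, 127, 81.1 and 125 FPKM. The 16 values left a gap between 81.1 and 124 FPKM, with 5 JQ1 and 3 vehicle mice above it and 3 and 5 below. The difference between the group means, 109 ± 39.2 and 92.3 ± 27.8 FPKM (SD, n = 8 each), was smaller than the width of the gap. The medians, 125 FPKM with JQ1 and 77.2 FPKM with vehicle, lay on opposite sides of it. The log2 fold change was 0.20 with a standard error of 0.24. Within groups the SD of Ndn was 0.49 on the log2 scale, where the median over the 1608 loci within 2-fold of its mean was 0.12, and 3.30% of those loci had a gap as wide. Mice numbered 2, 3 and 4 were below the gap in both groups and mice numbered 5, 6 and 8 above it in both, 6 of 8 numbers in all, and the labels do not say what a number stands for. In the aged mice Ndn ran from 189 to 291 CPM, and its widest gap was 0.10 on the log2 scale, which 49.3% of genes of like level reached. This pattern was noticed after the values were seen.

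**Figure D5:**
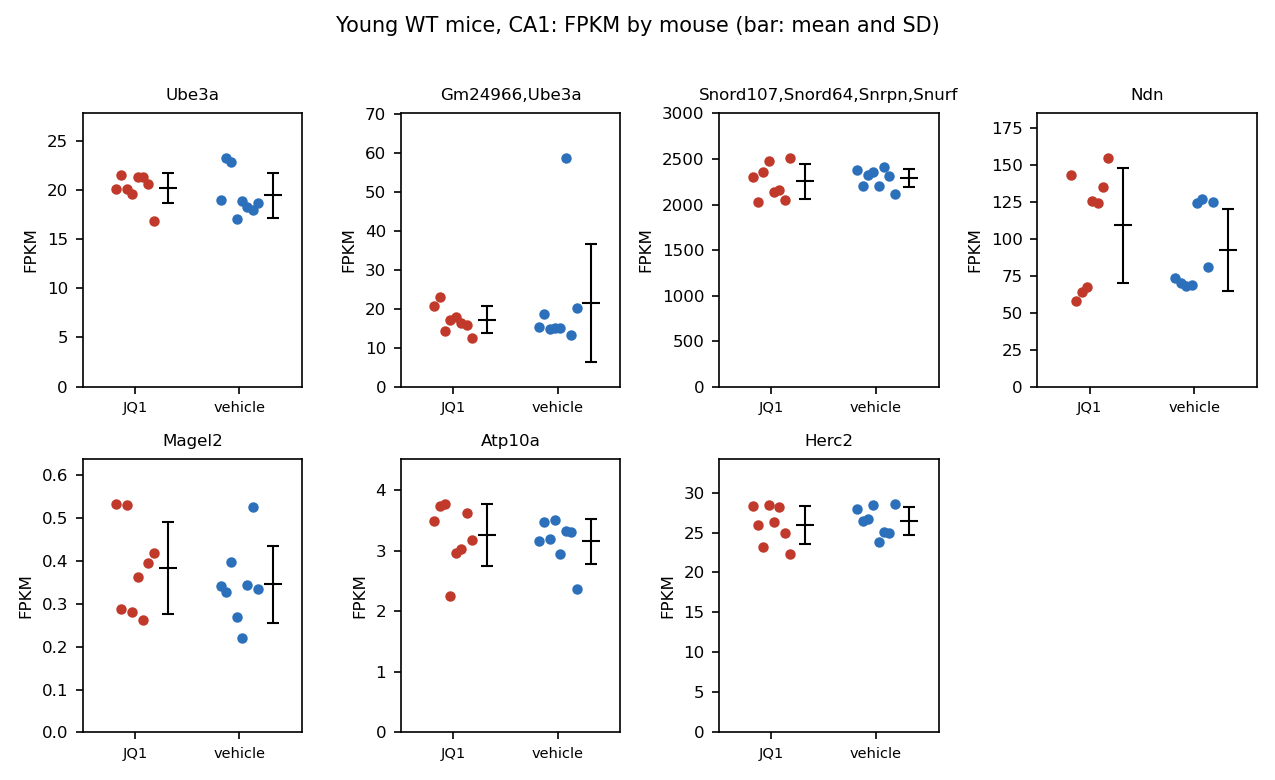
FPKM of 7 loci in the CA1 of young WT mice, 1 point a mouse, for JQ1 and vehicle, with the mean and SD beside the points. The Ndn panel shows 2 ranges, 58.1 to 81.1 and 124 to 154 FPKM, in both groups, and the Gm24966,Ube3a panel shows 1 vehicle-treated mouse at 58.7 FPKM.

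The remaining members did not differ in young mice. The log2 fold change was -0.03 for the Snrpn locus (95% interval -0.13 to 0.08), 0.04 for Atp10a (95% interval -0.18 to 0.25) and -0.03 for Herc2 (95% interval -0.15 to 0.09), and limma adjusted p-values were 0.984 to 0.995. Magel2 was below the filter on low values in both groups. The 5 member loci tested leave out Ndn and count the Gm24966,Ube3a locus by its name. Of these, 0 passed in limma, also without its trend and robust options. An unadjusted p under 0.05 was found for 0 of them, against 4.65% of all loci. Of 39 other loci in the interval 0 passed, with 0 at an unadjusted p under 0.05. Gabra5 was at 64.5 ± 8.72 FPKM (SD, n = 8) with JQ1 and 59.2 ± 3.52 FPKM (SD, n = 8) with vehicle (log2 fold change 0.11, limma adjusted p = 0.981).
In the HECT ligases, UBE3A partners, MAGE genes, spliceosomal genes and imprinted genes elsewhere, 0 loci passed, with 1, 1, 0, 1 and 1 at an unadjusted p under 0.05. Cdkn1b was the one whose groups did not overlap, with JQ1 above vehicle as in 0.0109% of loci (log2 fold change 0.19, limma adjusted p = 0.981). The largest unadjusted signals in the other lists were Hectd3 at 0.25, Snrpe at -0.18 and Ampd3 at 0.50 (limma adjusted p = 0.981 for each).

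Levels that moved from mouse to mouse like Ube3a, after the group means were removed, were compared over 16 aged and 16 young mice as a description. In aged mice the 5 genes most like it were Zfp800 (r = 0.95), Clock (r = 0.94), Senp5 (r = 0.94), Ythdc2 (r = 0.93) and Kif5b (r = 0.92), and 13 of 16961 genes had r of at least 0.9. In young mice they were Appl1 (r = 0.94), Klhl24 (r = 0.92), Ireb2 (r = 0.92), Dnajb14 (r = 0.92) and Chordc1 (r = 0.91). All 10 have a GC content below the median of 49.8%, between 35.7 and 44.8%, so they share base composition as well as libraries with Ube3a. Of the 5 aged genes, Clock, a transcription factor of the circadian oscillator, itself rose with JQ1 in APP mice (log2 fold change 0.64, edgeR adjusted p = 0.00469).

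The members themselves did not move as 1 block. With Ube3a in aged mice, r was 0.51 for Herc2, 0.18 for Magel2, -0.07 for Atp10a, -0.08 for Ndn and -0.61 for the Snrpn-locus row. In young mice it was 0.25 for Herc2, 0.13 for Atp10a, 0.06 for the Gm24966,Ube3a locus, -0.32 for Ndn and -0.50 for the Snrpn locus. Ndn and the Snrpn-locus row had r = 0.64 in aged mice, and Ndn and the Snrpn locus r = -0.09 in young mice. Each pair was measured in the same libraries.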

How the data were processed

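CA1 tissue was sequenced on a HiSeq2000. Of 33 samples in the labels, 32 had values: vehicle-treated aged WT replicate 2 is not analysed here. For the aged mice the authors deposited raw counts per gene, made with STAR on mm10 and htseq; the strand setting and annotation release are not given in the sources used here. The row of ENSMUSG00000000948 stands for the Snrpn locus. For the young mice the deposited values are FPKM per locus from cufflinks and cuffdiff. The submitters' processing notes also name CASAVA 1.8.2. Samples were grouped by their labels. Nothing in the labels says that samples of a group came from separate animals, so p-values measure the spread between these samples. No 2 samples held identical values.

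Counts were scaled by TMM and tested with edgeR 4.0.16 (quasi-likelihood, all 3 aged groups in 1 fit, genes kept by filterByExpr) and FPKM with limma 3.58.1 on log2(FPKM + 0.1) for loci with at least 0.5 FPKM in at least 8 of 16 samples, so low loci have understated fold changes. P-values were adjusted by Benjamini-Hochberg over all genes or loci tested. Intervals are 95% intervals of the fit. DESeq2 1.42.0 was an alternative. Exact permutation tests were two-sided, on log2 values, with scipy 1.17.1. Fits were tested on simulated data. The GENCODE M21 annotation gave the GC content of each gene's longest transcript and its exonic length, known for 98.9% of tested genes.

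Members and lists were chosen with earlier results of these data known. Named genes are all members, genes of the interval from Tubgcp5 to Peg12, up to 4 genes past the threshold per list or otherwise those with the smallest p, and the 5 genes most like Ube3a. Some items that this rule or the genotype would name are not reported here. Tests of Ube3a between groups of aged mice were fitted with all genes, but their p-values are not given because Ube3a was chosen on these mice.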

Additional observations from a re-analysis of the deposited data

Results flagged for a closer look

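In 5 cases 1 sample stood far from the others of its group (Dixon's ratio above its 95% critical value, which chance exceeds in about 1 of 20 groups). Every member row was checked in each of its groups, so some such cases arise by chance, and the rows share libraries. Ndn was at 291 CPM in WT replicate 1, against 230 to 236 CPM in the other WT mice. JQ1-treated APP replicate 2 held both a high Magel2 level, 2.99 CPM on 59 reads, and the lowest Snrpn-locus level with JQ1, 702 CPM, and it had the highest share of reads outside exons, 26.9%. Ube3a was lowest with JQ1 in young replicate 8, at 16.8 FPKM. The Gm24966,Ube3a locus was at 58.7 FPKM in young vehicle replicate 6. Causes were not tested.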

How the results depend on the processing

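Some of the members' values depended on the processing, and so did the count of genes past the threshold. For JQ1 against vehicle in APP mice it was 184, and 749 with DESeq2, which was run on every gene with a read, 22 with the GC correction (19 higher and 3 lower, against 105 and 79), 41 with GC and length corrected (34 and 7), and 65 to 446 with 1 library left out. For vehicle-treated APP against WT mice it was 436, and 798 with DESeq2 (793 among the genes edgeR tested), 679 in a fit of the 2 groups alone, and 154 to 601 with 1 library left out. For JQ1-treated APP against WT mice it was 349, and 800 with DESeq2 (787 among the genes edgeR tested), 227 in a fit of the 2 groups alone, 618 with GC and length corrected (356 higher and 262 lower, against 327 and 22), and 11 to 651 with 1 library left out. In young mice it was 1, and 0 without a filter on low FPKM, and 0 to 2 with 1 library left out.

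Replicate numbers were not shown to pair the samples. Deviations of same-numbered samples had a mean correlation of -0.024 over 14 aged pairs, 4 of them over 0.1. Over 8 young pairs the mean was 0.017, with 1 of them over 0.1. Differently numbered aged samples had a mean of 0.013 over 70 pairs, 28 of them over 0.1, and ran from -0.50 to 0.54. Some aged samples of different groups thus varied together, the fits do not model this, and its cause was not tested. Of 56 differently numbered young pairs 0 were over 0.1. With a replicate block the counts were 87, 35, 21 and, in young mice, 0. With the replicate block and GC and length corrected they were 32, 29 and 39. Under the block Ube3a in JQ1-treated APP against WT mice was 0.71, and with GC and length corrected too it was 0.54.

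Changes of sign concerned differences that were not past the threshold. Ndn for JQ1 against vehicle was -0.0806 with the GC correction, -0.0789 with GC and length corrected, and -0.0755 with the block added. Herc2 for vehicle-treated APP against WT mice was -0.0035 with DESeq2, -0.0034 with RLE size factors, -0.0046 without a count filter, -0.0702 with the block, -0.0765 with the GC correction, -0.0662 with GC and length corrected and -0.0753 with the block added. For JQ1-treated APP against WT mice Herc2 was -0.0113, -0.0483, -0.0606 and -0.0686 under the last 4 of these. The Snrpn-locus row for vehicle-treated APP against WT mice was 0.14 with the GC correction, 0.13 with GC and length corrected and 0.17 with the block added. With 1 library left out, Herc2 ran from -0.0034 to 0.14 for JQ1 against vehicle and from -0.0966 to 0.0591 for vehicle-treated APP against WT mice, Ndn from -0.11 to 0.0228 for JQ1-treated APP against WT mice, and in young mice the Gm24966,Ube3a locus from -0.22 to 0.0847 and Atp10a from -0.0202 to 0.11. Causes were not tested. Depth limits Magel2 most, with 16 to 68 reads per library.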
